A study of Mus musculus with 2 samples.

Results

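The genes described here were the potassium channel genes of the mouse, taken as every gene symbol that starts with Kcn, goes on with at least 1 letter and then has a digit. The rule found 98 of the 32285 genes listed, and used no measured value. By their names 77 encode pore-forming subunits, 16 encode auxiliary subunits and 5 are non-coding transcripts. They were followed across Schwann, mural, endothelial, stromal and immune cells of the temporomandibular joint (TMJ), the hinge of the lower jaw.

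Potassium channels let potassium ions leave or enter the cell and so hold the resting membrane potential and end electrical activity. Voltage-gated channels open on depolarization, inward rectifiers and tandem pore-domain (K2P) channels set the resting current, and calcium-activated channels couple calcium signals to the membrane. Auxiliary proteins (Kv beta, KChIP, KCNE and BK beta subunits) bind pore subunits and change their gating or their transport to the surface. In vessels, channels of smooth muscle and pericytes set contractile tone, and in peripheral nerve, glial channels are known for taking part in the buffering of potassium released by axons.

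The data were 2 single-cell RNA-seq libraries, 1 of the genotype labelled WT and 1 labelled Prox1 mutant, both of C57BL/6 mice aged 8 to 10 weeks by the labels. The methods of the study give the mice as female and the mutant as a Prox1+/- heterozygote, carrying 1 functional allele of the lymphatic regulator Prox1 in every cell of the body. Both libraries came from joints inoculated with complete Freund's adjuvant (CFA), which causes an inflammatory arthritis, so an uninflamed joint was not part of the comparison. How many mice were pooled is not given in the sources used here, and each genotype had 1 library, so genotype and library cannot be told apart and no p-value was computed. The 4352 WT and 5757 mutant cells kept held 48366846 and 54330221 unique molecular identifiers (UMIs, each a counted RNA molecule), with medians of 6997 and 4848 per cell. The libraries shared 10 barcodes. Prox1 itself had 563 UMIs in the WT library and 315 in the mutant, which are 11.6 and 5.80 counts per 1000000 UMIs (CPM). These are levels of whole libraries, and endothelial cells were 25.7% of the kept WT and 11.1% of the kept mutant cells. The part of such differences in makeup in the Prox1 levels was not tested. All intervals are at 95% and cover counting error only.

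Cells were clustered without the potassium channel genes and the clusters were named from marker genes. The Schwann class held 378 WT and 171 mutant cells, the mural class (smooth muscle cells and pericytes) 223 and 176, the endothelial class 1117 and 640, the stromal class 687 and 673 and the immune class 1312 and 1629. Schwann and mural cells had all of their 18 and 17 marker genes highest in their own class in both libraries. For the endothelial, stromal and immune classes this held for 13 of 16, 33 of 36 and 58 of 64 markers, and no cluster took the name of lymphatic endothelium. Of the other cells, 402 WT and 752 mutant cells were erythroid, muscle or epithelial by name and 233 and 1716 stayed unnamed. The joint preparation was not sorted, so the class sizes are those of a digest.

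Within the Schwann class, 7 cells carried the transcripts of neurons. They had between 9 and 12 of 12 neuronal marker genes such as Snap25, Uchl1, Tubb3 and the nociceptor sodium channel Scn10a, with 113 to 1617 UMIs of these genes in each cell. Summed over the 12 genes their level was 11059 CPM in the 6 WT cells and 8050 CPM in the single mutant cell, against 39.6 and 76.7 CPM in all other Schwann cells. Sox10, a transcription factor of Schwann cells, was at 0 in 4 of the 7 cells. The 6 WT cells were deep, at 15548 to 112787 UMIs, and held 14.9% of the UMIs of the WT Schwann class, whereas the mutant cell held 1.56% of its class. Most class levels and ratios of Schwann cells are therefore given with these cells and also without them, a choice made after they were seen.

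Of the 98 genes, 42 had at least 50 UMIs in each library over the 5 classes. A gene was called led by a class when its level there was at least 2 times that of the next class in both libraries. By this measure 22 of the 42 genes (52.4%) were led by a class, against 22.3% of the 14124 genes of the whole genome that passed the same minimum. Schwann cells led 12 members (28.6%, background 4.88%), mural cells 7 (16.7%, background 2.76%), endothelial cells 1 (2.38%, background 4.01%), stromal cells 2 (4.76%, background 3.52%) and immune cells 0 (background 7.17%). Without the cells with neuronal transcripts 41 members were tested. Schwann cells led 8 of them (background 4.66%), mural cells 8 (background 2.84%) and stromal cells 4 (background 3.79%). Immune cells led 1 (background 7.25%) and endothelial cells 1 (background 4.01% with those cells in place). Just outside the threshold were Kcnip3, Kcnip1 and Kcnk6, at 1.65, 1.65 and 1.90 times the next class, and just inside it Kcnq5, Kcnn2 and Kcnk10, at 2.06, 2.17 and 2.44 times.

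Summed over all members, the level was 3793 CPM in WT and 4045 CPM in mutant Schwann cells and 3583 and 4098 CPM in mural cells. Of the Schwann member UMIs, 2778 of 7886 in WT and 475 of 3642 in the mutant lay in the cells with neuronal transcripts. The Schwann sums, thinned means and shares given here include those cells, so they do not rank Schwann against mural cells without them. Stromal cells had 1898 and 1743 CPM, endothelial cells 581 and 585 CPM, and immune cells 387 and 432 CPM. After each cell was thinned to 2000 UMIs, Schwann and mural cells kept means of 6.92 to 7.56 member UMIs per cell, stromal cells 3.75 to 3.94, endothelial cells 1.23 and immune cells 1.06 to 1.09. The total was made by few genes: Kcna1 gave 36.1% and 44.5% of the member UMIs in Schwann cells, and Kcnab1 gave 53.3% and 52.8% in mural cells. Of the 56 genes that missed the minimum, 7 had 0 UMIs in the 5 classes of both libraries (Kcna7, Kcna10, Kcnj1, Kcnk16, Kcnv1, Kcnv2 and the non-coding Kcnmb4os1), and the other 49 were detected at low counts.

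**Figure D1:**
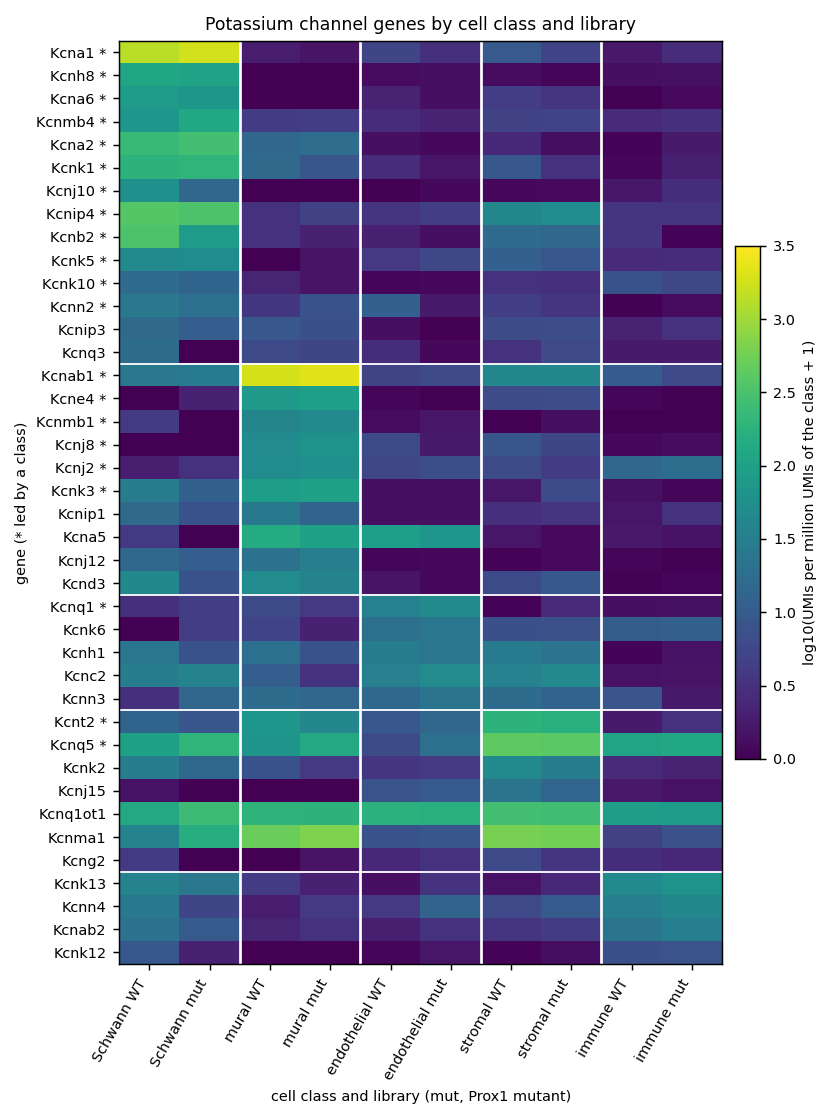
Level of 40 potassium channel genes with at least 50 UMIs in each library (rows) in the 5 classes of both libraries (columns), as log10(CPM + 1). Kcna1 stands out in Schwann cells (1370.4 and 1798 CPM) and Kcnab1 in mural cells (1909 and 2164 CPM).

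Schwann cells led 3 Shaker-type voltage-gated channels, subunits best known from the axon membrane beside the node of Ranvier. Kcna1 (chr6:126640397-126646384, GRCm38, minus strand) had 1370.4 (1321 to 1422) CPM in WT and 1798 (1712 to 1888) CPM in mutant Schwann cells. No other class exceeded 8.39 CPM, the level of WT stromal cells. A Kcna1 UMI was found in 94.4% of WT and 90.6% of mutant Schwann cells, and in 87.3% and 88.3% after thinning to 2000 UMIs per cell. In mural cells, which had the higher median depth (8978 and 11015 UMIs against 3576.5 and 4152), the share was 0.897% and 0.568%. Leaving out the cells with neuronal transcripts moved the Schwann level to 1605 (1547 to 1666) and 1827 (1739 to 1918) CPM, since those 6 WT cells held 8 of its 2849 WT UMIs.

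Kcna2, which forms mixed channels with Kcna1, had 234 (214 to 256) and 282 (248 to 319) CPM in Schwann cells, 17.0 times the next class (mural, 13.4 and 16.6 CPM), and 268 and 287 CPM without the neuronal cells. Kcna6, another Shaker-type subunit, had 84.2 (72.2 to 97.6) and 71.1 (54.7 to 90.8) CPM in Schwann cells, 91.0 and 72.2 CPM without the neuronal cells, and at most 3.26 CPM elsewhere. These genes differed in where they lay within the class. Kcna1 was at 2021 and 2219 CPM in myelinating cells and, without the neuronal cells, at 713 and 558 CPM in non-myelinating cells. Kcna6 had the opposite order, with 23.2 and 53.2 CPM in myelinating cells and 237 and 134 CPM in the 51 WT and 21 mutant non-myelinating cells. For both genes the counting intervals of the cell types did not overlap in either library.

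Kcnh8, a voltage-gated channel of the ether-a-go-go family, also lay in the non-myelinating cells, at 349 (301 to 401) and 348 (273 to 438) CPM against 21.5 and 23.6 CPM in myelinating cells. Over the Schwann class it was at 112 and 102 CPM, and at 125 and 100.4 CPM without the neuronal cells. Outside the class it did not exceed 0.422 CPM. Kcnj10, the inward rectifier of glial cells known for potassium uptake, was at 56.3 (46.5 to 67.5) CPM in WT and 13.3 (6.89 to 23.3) CPM in mutant Schwann cells, at 65.0 and 13.5 CPM without the neuronal cells, and at most 1.90 CPM elsewhere. Of its 117 WT UMIs, 99 were in the non-myelinating cluster.

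Among K2P channels, Schwann cells led Kcnk1 and Kcnk5. Kcnk1, a weakly inward-rectifying background channel, had 180.4 (163 to 199.6) and 191 (164 to 222) CPM, and 205 and 194 CPM without the neuronal cells. Myelinating cells had 301 and 199 CPM of Kcnk1. Non-myelinating cells without the neuronal ones differed between the libraries. They had no UMI of Kcnk1 in 51 WT cells, at 0 (0 to 6.56) CPM, and 177 (124 to 243) CPM in 21 mutant cells. Only 23.8% of these mutant cells had a UMI, with 37 UMIs in all. In the whole mutant Schwann class, 1 cell held 24 of the 172 Kcnk1 UMIs. Kcnk5, an acid-sensitive background channel, had 44.7 (36.1 to 54.8) and 48.9 (35.5 to 65.6) CPM, or 52.0 and 49.6 CPM without the neuronal cells, with 10.7 and 7.96 CPM in stromal cells as the next level. Kcnmb4, the beta subunit that slows calcium-activated BK channels in neurons, had 68.8 (58.0 to 81.0) and 123 (101 to 148) CPM in Schwann cells, 76.3 and 125 CPM without the neuronal cells, and no more than 4.10 CPM in any other class. The BK pore gene Kcnma1 was at 35.6 and 152 CPM in Schwann cells and at 10.2 (6.03 to 16.1) and 124 (102 to 149.6) CPM without the neuronal ones.

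The other 4 members led by Schwann cells rested on the 7 cells with neuronal transcripts. Kcnip4, a KChIP subunit of A-type channels, had 381 (355 to 409) and 333 (297 to 373) CPM with those cells and 3.39 (1.24 to 7.38) and 10.2 (4.64 to 19.3) CPM without them. Kcnb2, a delayed rectifier, went from 329 (304 to 354) and 84.4 (66.5 to 106) CPM to 6.78 (3.504 to 11.8) and 63.2 (47.7 to 82.0) CPM, and 52 of the 56 UMIs left in the mutant were in 1 cell. Kcnk10, a stretch-sensitive K2P channel, and Kcnn2, a small-conductance calcium-activated channel, had 15.9 and 12.2 CPM and 24.1 and 17.8 CPM with the 7 cells. Without them Kcnk10 had 5.09 (2.33 to 9.65) and 10.2 (4.64 to 19.3) CPM and Kcnn2 had 12.4 (7.79 to 18.8) and 4.51 (1.23 to 11.6) CPM, and neither was led by Schwann cells.

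The 7 cells held 2778 member UMIs in WT and 475 in the mutant, and member levels in single cells ran from 3318 to 33839 CPM. In all, 23 members had at least 20 UMIs there. Kcnip4, Kcnb2 and Kcnh7, an ERG-type channel, were found in all 7 cells, at 2545, 2169.8 and 508 CPM in the 6 WT cells together. Once these cells were set apart, Kcnh7 did not exceed 0.565 CPM in any class of the WT library, and mutant Schwann cells had 1.13 CPM. Kcnmb2, a BK beta subunit that inactivates the channel, was at 388 CPM and came from 3 of the 7 cells.

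The cells differed from each other. Kcnip4 ranged from 50.3 to 23476 CPM per cell and Kcnd3, an A-type pore subunit, had 48 of its 64 UMIs in 1 cell. Kcnq5, a pore subunit of the M-current, was found in 4 cells, and 136 of its 204 UMIs were in 1. The share of WT Schwann-class UMIs that lay in the 6 cells was 100% for Kcnmb2, 99.4% for Kcnh7, 99.2% for Kcnip4, 98.3% for Kcnc2 and 98.2% for Kcnb2, and 0.281% for Kcna1.

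**Figure D2:**
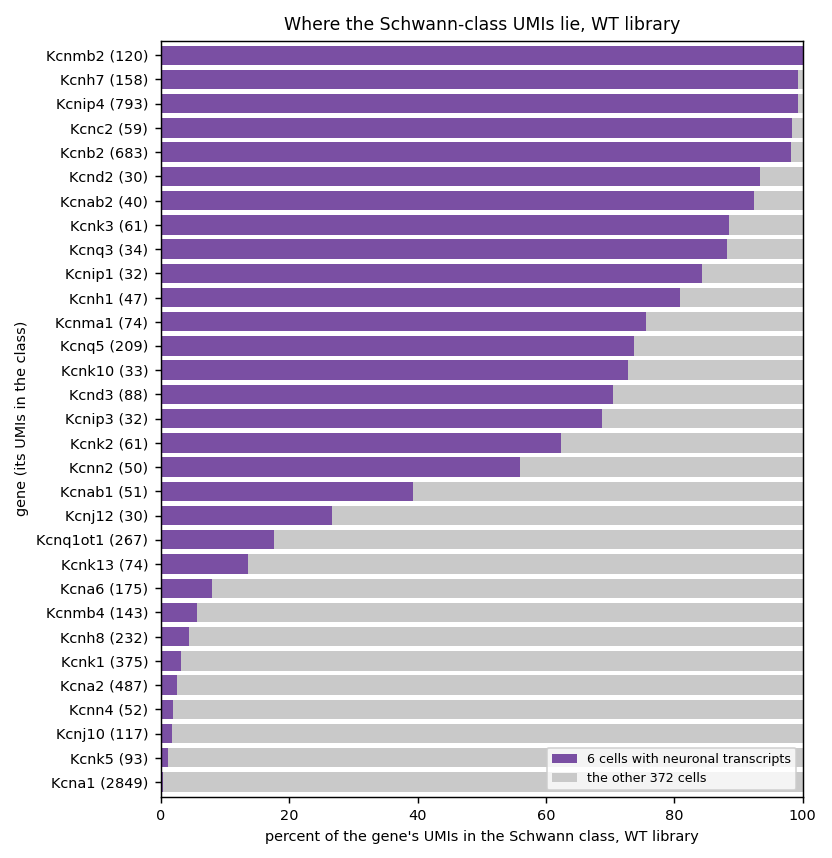
Percent of each gene's UMIs in the WT Schwann class that lay in the 6 cells with neuronal transcripts (filled part) and in the other cells of the class, for members with at least 30 UMIs in the class. Kcnmb2, Kcnh7, Kcnip4, Kcnc2 and Kcnb2 are nearly all in the 6 cells (98.2 to 100%), and Kcna1 is nearly all outside them.

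Mural cells led Kcnab1 by the widest margin, 47.3 times the next class. This Kv beta subunit, which speeds the inactivation of Shaker-type channels, had 1909 (1852 to 1967) CPM in WT and 2164 (2097 to 2233) CPM in mutant mural cells, and 40.4 and 40.3 CPM in stromal cells. Smooth muscle cells were at 2401 and 2483 CPM and pericytes at 349 and 899 CPM. The pericytes were 1 cluster with 9 pericyte markers raised. Its 10 leading genes also held Actg2 and Cnn1, which are on the smooth muscle marker list. A Kcnab1 UMI was found in 76.2% and 65.3% of mural cells, 71.8% and 68.8% after thinning, and in 1.88% and 3.28% of endothelial cells.

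Kcnmb1, the beta subunit that raises the calcium sensitivity of BK channels in smooth muscle, lay in the smooth muscle clusters, with all of its 87 WT mural UMIs and 77 of 83 mutant ones there. It had 38.7 (31.0 to 47.8) and 45.8 (36.5 to 56.8) CPM in mural cells and at most 2.89 CPM elsewhere. Kcne4, a KCNE subunit that inhibits Kv7 and Shaker-type channels, had 74.4 (63.5 to 86.5) and 94.4 (80.8 to 109.7) CPM and was present in both smooth muscle (82.0 and 101 CPM) and pericytes (50.2 and 68.5 CPM). Kcnmb1 lies within Kcnip1 on the opposite strand. Whether the counting used strand is not given in the sources used here, and Kcnip1 was at 25.4 and 12.1 CPM in mural cells.

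Kcnj8, the pore of the vascular ATP-sensitive channel, lay mainly in the pericytes. It had 100 of its 109 WT and all 111 of its mutant mural UMIs in the pericyte cluster, which are 186 (151 to 226) and 304 (250.3 to 366) CPM. In smooth muscle it was at 5.27 (2.41 to 10.0) CPM in WT and at 0 (0 to 2.55) CPM in the mutant, where the 138 cells had no UMI. With classes set cell by cell from marker UMIs, Kcnj8 was at 8.12 and 10.4 CPM in mural cells and its log2 lead was 0.013, so that the lead was lost. Its regulatory partner Abcc9 was at 209 and 224 CPM in mural cells against 48.7 and 56.5 CPM in stromal cells. Kcnd3 followed the pericytes too, at 199 (163 to 240.3) and 126 (92.3 to 168) CPM, and was counted as led by mural cells once the neuronal cells were left out.

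Inward rectifiers of smooth muscle showed the reverse place. Kcnj2 had 60.9 and 69.8 CPM and Kcnj12 24.6 and 37.3 CPM in smooth muscle cells. Over the mural class Kcnj2 was at 49.0 (40.3 to 59.0) and 56.3 (45.9 to 68.4) CPM, with immune cells next at 13.3 and 17.1 CPM. Its log2 lead went from 1.72 to 0.95 at a minimum of 1000 genes per cell. Kcnk3, an acid-sensitive K2P channel known from pulmonary arteries, had 86.8 (75.1 to 99.9) and 98.3 (84.4 to 114) CPM in mural cells. Its next class was Schwann at 29.3 and 11.1 CPM, of which 54 of 61 WT UMIs were in the neuronal cells.

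Promoter sequence was examined for the members led together by a class. RefSeq promoter windows of the GRCm38.p6 assembly (the 250 bases before the annotated start) were matched for 71 of the 98 members. The letters ACAAAG or ACAATG, the core bound by Sox-type factors, were searched on both strands and occurred in 14 of the 71 members (19.7%), against 28.2% of 27025 genes. Of the members led by Schwann cells 2 of 9 with a window held a match, or 2 of 7 without the neuronal cells. A match occurred in 2 of 5 members led by mural cells and in 2 of 2 led by stromal cells. A gene with several annotated starts was counted when any of its windows held a match. Kcnab1 had its matches only in the window at chr3:65187853-65188102, which lies inside the gene. Kcnq5 had its match only in the window at chr1:21962651-21962900. A CArG box, the motif of serum response factor known from smooth muscle genes, occurred in 0 of the 71 members and in 1.62% of all genes. A match only says that the letters are there. The windows of the Schwann-led genes Kcnk1 and Kcnmb4 and of the mural-led gene Kcnmb1 are shown as examples, read 5′ to 3′ on the strand of the gene, with the match, or its reverse complement CTTTGT or CATTGT, in capitals. Kcnk1 is at chr8:125994852-125995101 (plus strand), Kcnmb4 at chr10:116473524-116473773 (minus strand) and Kcnmb1 at chr11:33962763-33963012 (plus strand).
Kcnk1: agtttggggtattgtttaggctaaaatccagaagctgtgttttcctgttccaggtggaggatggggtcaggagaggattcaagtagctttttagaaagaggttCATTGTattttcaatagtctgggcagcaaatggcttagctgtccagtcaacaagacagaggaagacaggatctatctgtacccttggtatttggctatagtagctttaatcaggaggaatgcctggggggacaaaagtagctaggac
Kcnmb4: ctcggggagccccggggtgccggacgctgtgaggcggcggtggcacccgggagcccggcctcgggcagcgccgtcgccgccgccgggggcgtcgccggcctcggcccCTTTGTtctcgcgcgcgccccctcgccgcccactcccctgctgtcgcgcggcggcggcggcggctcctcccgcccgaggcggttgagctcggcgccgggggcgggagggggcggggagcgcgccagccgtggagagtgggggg
Kcnmb1: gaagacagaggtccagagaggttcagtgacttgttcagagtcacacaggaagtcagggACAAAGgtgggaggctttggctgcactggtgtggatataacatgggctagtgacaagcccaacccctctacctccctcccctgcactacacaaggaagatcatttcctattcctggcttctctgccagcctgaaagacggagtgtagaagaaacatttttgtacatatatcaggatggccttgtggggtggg

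Some prominent vascular members were shared and so led by no class. Kcnma1, the BK pore, had 508 (479 to 538) and 664 (627 to 703) CPM in mural cells and 605 (589.9 to 619) and 565 (549 to 582) CPM in stromal cells. Within the stroma it was at 1574 and 2109.8 CPM in tenocytes, 1287 and 1084 CPM in chondrocytes and 196 and 157 CPM in mesenchymal cells. Kcnma1 in smooth muscle was at 617 and 717 CPM, so that the tenocyte and chondrocyte levels were higher than the smooth muscle level in both libraries, with intervals that did not overlap.

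Kcna5, a Shaker-type channel of vascular muscle, had 140.3 (125 to 157) and 99.96 (85.9 to 116) CPM in mural and 94.4 (87.5 to 102) and 67.8 (60.7 to 75.4) CPM in endothelial cells, and at most 2.89 CPM in the other classes. Kcna5 was at 164 and 124 CPM in the endothelial cluster led by Timp4, Car4 and Gpihbp1, genes of capillaries, and at 66.1 and 44.4 CPM in the cluster led by Nebl, Sema3g and Gja5, genes of arteries.

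The endothelial class led only Kcnq1, the pore subunit known from the heart and epithelia. It had 33.5 (29.4 to 37.9) and 46.3 (40.4 to 52.7) CPM in endothelial cells, 6.26 times the next class. Kcnq1 was found in 11.4% and 15.2% of endothelial cells and in 3.66% and 5.46% after thinning, and it overlaps the antisense transcript Kcnq1ot1. The Sema3g cluster had 56.0 and 74.9 CPM of Kcnq1 and the cluster led by Ubd, Selp and Plvap, with the venular gene Selp, had 45.1 and 65.4 CPM, against 12.2 and 16.3 CPM in the Timp4 cluster.

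The Selp cluster was also the endothelial site of Kcnh1 and Kcnc2. Kcnh1, the founding member of the ether-a-go-go channels, had 216 of its 219 WT and 111 of its 112 mutant endothelial UMIs there, at 81.9 (71.3 to 93.6) and 65.4 (53.8 to 78.8) CPM. Kcnc2, a fast delayed rectifier, had 69.0 (59.4 to 79.8) and 117 (101 to 134) CPM in the Selp cluster and 17.7 and 21.5 CPM in the Timp4 cluster. Over whole classes neither gene was led by the endothelium, since Kcnh1 reached 25.5 and 20.4 CPM and Kcnc2 34.5 and 43.9 CPM in stromal cells. Kcnk6, a K2P channel of intracellular membranes and vessels, was at 18.6 (15.6 to 22.0) and 22.9 (18.9 to 27.6) CPM in endothelial and at 9.80 and 10.7 CPM in immune cells.

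Stromal cells led Kcnt2 and Kcnq5. Kcnt2, a sodium-activated channel, had 181 (173 to 189) and 156 (148 to 165) CPM, with mural cells next at 67.2 and 40.9 CPM. Mesenchymal cells had 252 and 202 CPM of Kcnt2, tenocytes 13.2 and 35.9 CPM, and pericytes 221 and 181 CPM. Kcnq5 had 429 (416 to 441) and 402 (389 to 416) CPM over the stromal class, and tenocytes held 4203 of its 4596 WT UMIs, at 1794 and 1743 CPM. Of the stromal Kcnq5 UMIs, 1 cell held 835 in WT and 1 cell 245 of 3333 in the mutant. Without these top cells the stromal level was 354.5 and 373 CPM. The leads did not hold throughout: the log2 lead of Kcnq5 was 0.81 after thinning and that of Kcnt2 0.81 at a minimum of 1000 genes per cell. The B cells were another site of Kcnq5, at 2017 and 1369 CPM.

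Kcnk2, a stretch- and heat-sensitive K2P channel, was at 45.0 (41.1 to 49.2) and 28.7 (25.2 to 32.6) CPM in stromal cells and counted as led by them only without the neuronal cells. Tenocytes had 134 (119 to 149) CPM of Kcnk2 in WT and 51.2 (40.2 to 64.2) CPM in the mutant, and 1 cell held 131 of the 483 WT stromal UMIs. The stromal log2 ratio was -0.65, and -0.36 without the top cells. The clusters named osteoblast and osteocyte had 69.1 and 128 CPM.

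The same bone-cell clusters carried Kcnip4 (228 and 353 CPM), Kcnh1 (128 and 120.1 CPM) and the inward rectifier Kcnj15 (82.8 and 70.2 CPM). Of the Kcnip4 UMIs of the stromal class, 1 cell held 89 of 425 in WT and 1 cell 149 of 405 in the mutant. For Kcnj15 the bone-cell clusters held 145 of 230 WT and 69 of 106 mutant stromal UMIs. Much of this came from 1 cluster of 86 WT and 29 mutant cells led by Dok6, Plppr1 and Gpc5. That cluster took its name from 3 raised markers, and none of the bone matrix genes Bglap, Ibsp and Dmp1 was among its 10 leading genes.

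**Figure D3:**
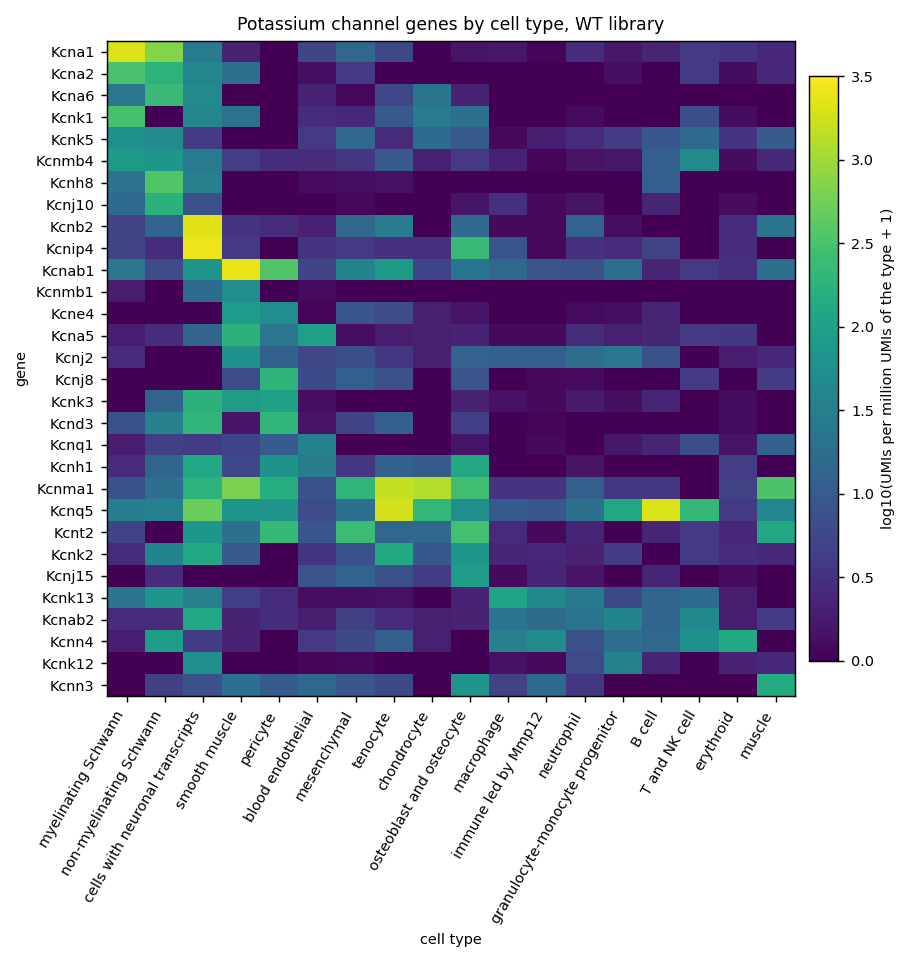
Level of 30 members in the named cell types of the WT library, as log10(CPM + 1). Within the classes, Kcnj8 and Kcnd3 lie in pericytes, Kcnmb1 and Kcnj2 in smooth muscle, Kcnq5 in tenocytes and B cells and Kcnk13 in macrophages, where it was at 110.2 CPM.

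Immune cells led no member with the neuronal cells in place. Kcnk13, a K2P channel known for the resting potential of microglia, was at 45.7 (42.9 to 48.7) and 59.0 (55.9 to 62.2) CPM, with Schwann cells next at 35.6 and 23.3 CPM. Macrophages had 110.2 (101 to 121) and 126 (118 to 135) CPM of Kcnk13 and neutrophils 25.0 and 29.6 CPM. The immune cluster led by Mmp12, which took the name osteoclast from its markers, had 41.7 and 50.8 CPM. Kcnk12, a close relative of Kcnk13, was at 34.0 and 46.4 CPM in granulocyte-monocyte progenitors, which held 99 of its 126 WT and 127 of its 160 mutant immune UMIs.

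Kcnab2, a Kv beta subunit, had 21.0 (19.1 to 23.1) and 31.8 (29.6 to 34.2) CPM in immune cells and was led by them once the neuronal cells, which held 37 of its 40 WT Schwann UMIs, were left out. Kcnn4, the calcium-activated channel of lymphocytes, macrophages and red cells, had 31.4 (29.0 to 33.9) and 40.6 (38.0 to 43.2) CPM in immune cells. Neutrophils had 6.39 and 14.98 CPM of Kcnn4, and T and NK cells 56.2 and 40.4 CPM. In the mutant library the level of T and NK cells was thus close to that of the whole immune class. Kcna3, a Shaker-type channel of T cells, missed the minimum, with 28 and 33 UMIs in the immune class.

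Other members were spread over several classes. Kcnq1ot1, the imprinted non-coding transcript within Kcnq1, had 128 and 253 CPM in Schwann, 187 and 181 CPM in mural, 172 and 158 CPM in endothelial, 283 and 266 CPM in stromal and 90.3 and 84.6 CPM in immune cells. Kcnn3, a small-conductance calcium-activated channel, was between 11.8 and 20.9 CPM in mural, endothelial and stromal cells of both libraries. Kcnip3 was highest in Schwann cells, at 15.4 and 9.996 CPM, of which 22 of 32 WT UMIs lay in the neuronal cells. Kcng2, a silent subunit that only works together with other pores, stayed at or under 4.85 CPM in every class.

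The mutant library was compared with WT within each class over members with at least 50 UMIs there, and a member was counted when its level differed by at least 2-fold. In Schwann cells 2 of 26 members were higher (background 3.08% of 8182 genes) and 10 lower in the mutant (background 7.08%). Without the neuronal cells 15 members were left, of which 4 were higher (background 3.54%) and 2 lower (background 3.63%). Of the 10 lower members, Kcnj10 and Kcnn4 were the 2 still counted. In mural cells 1 of 19 was higher (background 1.5%) and 2 lower (background 2.17%), in endothelial cells 2 of 16 were higher (background 2.52%) and 1 lower (background 1.65%), in stromal cells 2 of 33 were higher (background 4.18%) and 5 lower (background 2.58%), and in immune cells 5 of 26 were higher (background 4.29%) and 2 lower (background 1.81%). The median log2 ratio of mutant over WT was -0.22 for members and 0.0021 for all genes in Schwann cells, 0.20 and -0.032 in mural cells, 0.34 and 0.032 in endothelial cells, -0.21 and 0.044 in stromal cells and 0.15 and 0.12 in immune cells. These ratios compare 2 libraries and carry no replicate error.

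In Schwann cells, Kcnj10 and Kcnn4 were lower in the mutant with and without the neuronal cells. Kcnj10 went from 117 UMIs (56.3 CPM) in WT to 12 UMIs (13.3 CPM) in the mutant. Its log2 ratio was -2.08 (-3.07 to -1.22) with and -2.26 (-3.26 to -1.40) without the neuronal cells. Kcnn4 went from 52 to 4 UMIs, with a log2 ratio of -2.49 (-4.42 to -1.05) with and -2.67 (-4.60 to -1.23) without those cells. In WT both genes lay mainly in non-myelinating cells (99 of 117 Kcnj10 and 51 of 52 Kcnn4 UMIs). These were 57 of 378 WT and 22 of 171 mutant Schwann cells. Within them, without the neuronal cells, Kcnj10 was at 172 (140 to 210) CPM in WT and 52.5 (26.2 to 93.9) CPM in the mutant. Kcnn4 was at 88.9 (66.0 to 117) and 9.54 (1.16 to 34.5) CPM there. The part of the makeup of the class in the ratios was not tested. For Kcnn4 the ratio turned to 1.03 when each cell was thinned to 2000 UMIs, and to between 0.14 and 1.24 under 4 other settings. Kcnd3 was lower at -2.67 (-4.15 to -1.49) with 62 of 88 WT UMIs in the neuronal cells, and at 0.83 with classes set cell by cell.

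Kcnma1 was higher in mutant Schwann cells at 2.10 (1.68 to 2.52), and at 3.61 (2.88 to 4.42) without the neuronal cells, but 74 of its 137 mutant UMIs were in 1 cell, and the log2 ratio was -0.88 at a minimum of 200 genes per cell and -1.38 with the members among the clustering features. Kcnd2, the A-type pore subunit, was counted as higher, with all of its 29 mutant UMIs in 1 cell, and without the top cell of each library the log2 ratio was -0.45. For that ratio the mutant library, with no Kcnd2 UMI left, was set to 3 UMIs. Kcnb2 turned with the neuronal cells: it was past 2-fold lower with them, at -1.96 (-2.32 to -1.62), and past 2-fold higher without them, at 3.22 (2.30 to 4.26), where 52 of its 56 mutant UMIs were in 1 cell. Kcnq5 was at 0.96 (0.66 to 1.26) with the neuronal cells and 2.19 (1.73 to 2.68) without them, and Kcnq1ot1 at 0.98 (0.72 to 1.24) and 1.02 (0.75 to 1.30), so that both passed 2-fold only without them. Of the members that Schwann cells led, Kcna1 was at 0.39 (0.30 to 0.48) with and 0.19 (0.097 to 0.27) without the neuronal cells, and Kcna2 at 0.27 (0.044 to 0.49) and 0.094 (-0.13 to 0.32). Kcnk1 was at 0.083 (-0.19 to 0.35) and -0.08 (-0.35 to 0.19), and Kcnh8 at -0.13 (-0.49 to 0.23) and -0.32 (-0.69 to 0.04). These 4 genes were within 2-fold in both settings.

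In mural cells, Kcnq5 was higher in the mutant (64.1 against 129.8 CPM, log2 ratio 1.02, interval 0.71 to 1.33), but not with classes set cell by cell (-0.36). Kcnh1 (17.8 against 6.63 CPM, log2 ratio -1.43, interval -2.49 to -0.47) and Kcnip1 (25.4 against 12.1 CPM, log2 ratio -1.06, interval -1.84 to -0.33) were lower. Under other settings these ratios came down to -0.61 for Kcnh1 (classes set cell by cell) and -0.92 for Kcnip1 (thinning). The genes that mural cells led were within 2-fold, and all 7 had a higher CPM in the mutant library than in WT. In endothelial cells Kcnn4 (2.87 against 12.2 CPM, log2 ratio 2.09, interval 1.35 to 2.88) and Kcnq5 (5.46 against 18.5 CPM, log2 ratio 1.76, interval 1.21 to 2.33) were higher in the mutant, and Kcnq5 was at 0.24 with classes set cell by cell. For Kcnq5, 44 of the 91 mutant UMIs were in the cluster of low depth led by Ctla2a, Pf4 and Plvap, and for Kcnn4 28 of 60 were in the Selp cluster. Kcnn2 was lower, but 73 of its 81 WT UMIs were in 1 cell. Without the top cells its log2 ratio was -0.85, but the mutant library then had under 3 UMIs of Kcnn2 and was set to 3.

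In stromal cells, Kcnd2 was the member with the largest difference, at 225 WT against 12 mutant UMIs, a log2 ratio of -3.86 (-4.83 to -3.02). The Dok6 cluster, with 86 WT and 29 mutant cells, held 221 of these WT and 8 of these mutant UMIs. The most Kcnd2 UMIs in 1 WT cell was 31. The part of the cell numbers of this cluster in the Kcnd2 ratio was not tested. With the libraries merged without integration the Kcnd2 ratio was -1.98. Kcnk1 (7.93 against 2.29 CPM, log2 ratio -1.79, interval -2.59 to -1.06) and Kcnn1 (3.64 against 1.33 CPM, log2 ratio -1.45, interval -2.57 to -0.46) were also lower. Kcnk1 was at -0.25 with the libraries merged without integration and Kcnn1 at -0.78 with classes set cell by cell. Kcna1 and Kcng2 passed 2-fold at -1.08 and -1.01. Kcnq3 (2.24 against 4.95 CPM, log2 ratio 1.14, interval 0.38 to 1.93) was higher, with 40 of the 41 mutant UMIs of Kcnq3 in the osteoblast and osteocyte clusters and a log2 ratio of 0.93 without its top cells and -0.25 with classes set cell by cell. The stromal class differed in its makeup, with 32 WT against 107 mutant chondrocytes and 6 against 117 adipocytes.

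In immune cells, Kcne3, a KCNE subunit of epithelial channels, was higher in the mutant (1.35 against 5.19 CPM, log2 ratio 1.94, interval 1.34 to 2.59). Granulocyte-monocyte progenitors held 83 of its 123 mutant UMIs, at 30.3 (24.1 to 37.6) CPM against 3.09 (1.41 to 5.86) CPM in WT, with 166 WT and 169 mutant cells. Kcnip1 (0.628 against 2.28 CPM, log2 ratio 1.86, interval 0.97 to 2.86) and Kcnj10 (0.676 against 1.90 CPM, log2 ratio 1.49, interval 0.60 to 2.47) were higher at low levels, as were Kcnt2 and Kcna1, but after thinning Kcnip1 was at 0.20 and Kcnj10 turned to -1.02. Kcnn3 was lower, at 154 WT against 19 mutant UMIs (log2 ratio -3.21, interval -3.98 to -2.52). Of these Kcnn3 UMIs 127 of the WT and 6 of the mutant lay in the Mmp12 cluster, where 21.7% of 253 WT and 2.53% of 198 mutant cells had a UMI. Kcnb2 was lower with 37 of its 48 WT UMIs in 1 cell, and at -2.07 without the top cells. The mutant library had under 3 UMIs of Kcnb2 and was set to 3 for its ratios.

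**Figure D4:**
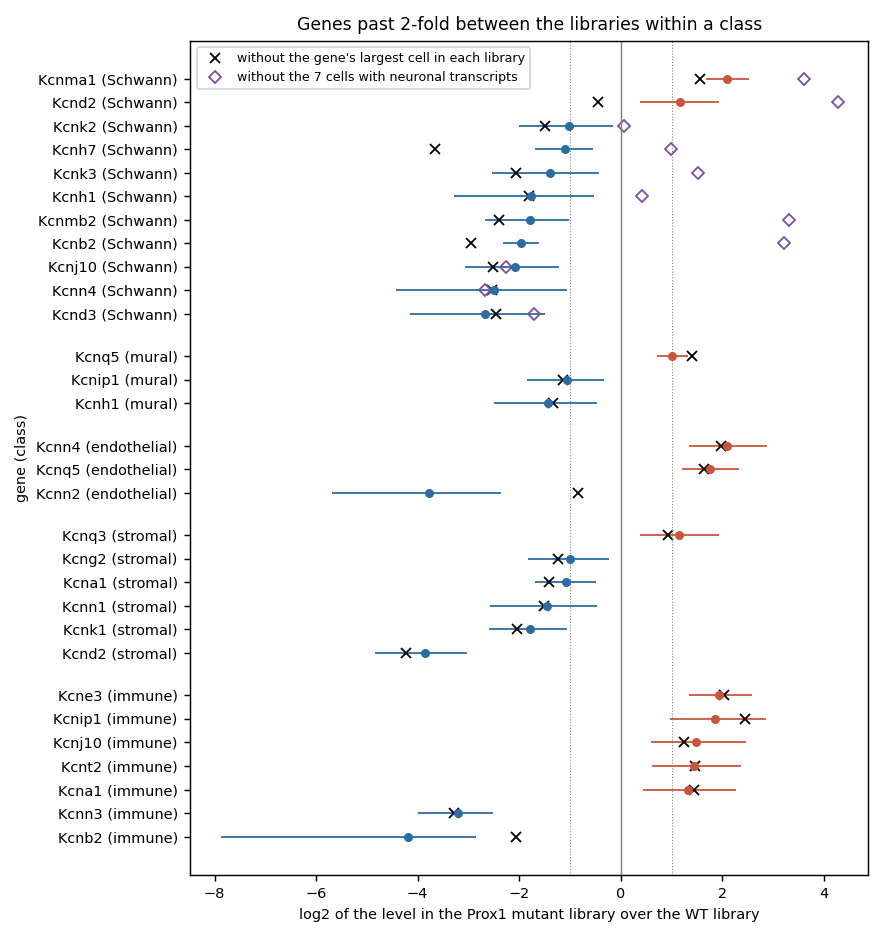
Log2 ratio of the mutant over the WT library for 30 pairs of gene and class past 2-fold, with exact binomial intervals. Crosses give the ratio without the cell with the most UMIs of the gene in each library and diamonds the ratio without the 7 cells with neuronal transcripts. Kcnn2 in endothelial cells moves from -3.77 to -0.85 without the top cells, where the mutant had under 3 UMIs left and was set to 3. Kcnd2 in stromal cells (-3.86) and Kcnn3 in immune cells (-3.21) stay past 2-fold without the top cells.

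A list of 30 partner genes was counted by the same rules, of which 19 passed the minimum and 11 were led by a class (background 22.3%). The list was chosen with earlier results known. Schwann cells led Lgi4, a secreted ligand of myelination (113 and 148 CPM), the chloride importer Slc12a2 (365 and 339 CPM) and Kcnrg (11.1 and 12.2 CPM). Dpp6, a partner of A-type channels, and Cntnap2, an axonal protein that clusters Shaker-type channels, were called in Schwann cells only through the neuronal cells. Dpp6 went from 248 and 34.4 CPM to 0 and 3.38 CPM, and Cntnap2 from 437 and 76.6 CPM to 6.78 and 2.26 CPM, without those cells.

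Mural cells led Abcc9 and the sodium pump subunit Atp1b2 (142 and 179 CPM) and the endothelium led the potassium-chloride exporter Slc12a7 (67.5 and 73.0 CPM). Without the neuronal cells 9 partners were led by a class (background 22.3% with those cells in place). Dpp6, Cntnap2 and Atp1b2 were no longer counted. Adam22, a juxtaparanodal protein, was counted in mural cells (67.7 and 84.5 CPM).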

How the data were processed

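Single cells of the TMJ were profiled in 1 WT and 1 Prox1 mutant library, both after CFA. The authors aligned the reads to GRCm38/mm10 with Cell Ranger 7.0.1 and deposited filtered matrices of raw UMI counts per gene and cell. Kit version and enzymes differ between the labels and the methods of the study, and intron counting, strand use and doublet removal are not given in the sources used here. A barcode was kept if it had 500 or more genes and less than 10% of its UMIs from mitochondrial genes, which left 4352 of 5709 WT and 5757 of 7846 mutant barcodes, with 48366846 and 54330221 UMIs.

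The libraries were normalised with sctransform 0.4.2 and integrated in Seurat 5.3.0 under R 4.3.3 (2969 features after the 31 members among 3000 were taken out, 200 principal components, resolution 1.5). This gave 44 clusters, of which 7 stayed unnamed, and names came from marker lists. Clusters of the Schwann, mural, endothelial or stromal class with 2 or more haemoglobin or immunoglobulin genes among their 10 leading genes were left unnamed, a choice made after seeing them. This removed a cluster nearest to mesenchymal cells (9 WT and 206 mutant cells) and 1 nearest to smooth muscle (1 WT and 155 mutant cells). Immune and erythroid clusters with such genes kept their names. The barcodes with the highest Scrublet doublet scores, up to a rate of 0.8% per 1000 barcodes (239 WT and 462 mutant), were kept in the main values and left out in an alternative.

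UMI counts were summed per class and library in Python 3.11.15 (numpy 2.4.6, scipy 1.17.1, scanpy 1.11.5) and divided by all UMIs of the class to give CPM, with exact Poisson intervals. Shares of cells have Clopper-Pearson limits, and ratios exact binomial intervals. A class under 3 UMIs was set to 3 for folds, and so was a library under 3 UMIs for ratios. Since each genotype had 1 library, no test between genotypes was made. The rules were tested on simulated Poisson counts per gene and class, which leave out the spread between cells, such as 1 cell with most UMIs of a gene. A lead needed at least 50 UMIs in each library and a ratio between libraries at least 50 UMIs over both, each with a 2-fold difference. The text names up to 7 members per leading class and up to 3 per class and direction by these sizes, and other members it names were chosen after their values were seen. The members and lists were chosen with earlier results of these data known. Some genes that the counts include are not reported here by name.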

Additional observations from a re-analysis of the deposited data

Results flagged for a closer look

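Outside the 5 classes, Kcnn3 in muscle cells and Kcnn4 in erythroid cells were above the level of the same gene in every class. Kcnn3, a small-conductance calcium-activated channel, was at 141 CPM in the 90 WT and 204 CPM in the 35 mutant muscle cells. These were 1 cluster led by Pax7, Mybpc1 and Chodl. The muscle markers Acta1, Ckm, Tnnt3 and Ttn were not among its 10 leading genes. Kcnn4, known as the Gardos channel of red cells, was at 134 CPM in the 309 WT and 170.1 CPM in the 662 mutant erythroid cells.

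For 5 members the mutant library was past 2-fold higher than WT in one class and past 2-fold lower in another, and the difference between the classes was not tested. The log2 ratio of Kcna1 was 1.32 in immune and -1.08 in stromal cells. Its levels there were low, at 0.724 and 1.81 CPM in immune and 8.39 and 3.98 CPM in stromal cells. In the immune class 15 of its 43 mutant UMIs were in 1 cell. Kcnd2 was at 1.16 in Schwann cells, where all mutant UMIs were in 1 cell, and at -3.86 in stromal cells. Kcnip1 was at 1.86 in immune (0.20 after thinning) and -1.06 in mural cells (-0.92 after thinning). Kcnj10 was at 1.49 in immune (-1.02 after thinning) and -2.08 in Schwann cells. Kcnn4 was at 2.09 in endothelial and -2.49 in Schwann cells (1.03 after thinning).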

How the results depend on the processing

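No paired analysis was possible because each genotype had 1 library. Of 80 alternative counts of led members 60 stayed within 1.5 times the main count, and of 221 alternative leads 201 stayed past 2-fold with the same class. Of 442 alternative levels 148 moved beyond the main interval, most often with cell-by-cell classes, at 1000 genes or after thinning. Kcnh8 in WT Schwann cells went from 112 to 21.4 CPM with 30 components, and Kcnj8 in WT mural cells from 48.5 to 8.12 CPM with cell-by-cell classes. Schwann cells led 6 members with 30 principal components or resolution 0.5 (where the non-myelinating cells stayed unnamed), 5 with classes set cell by cell from markers and 20 with no minimum of UMIs. Endothelial cells led 2 after thinning to 2000 UMIs. Stromal cells led 1 with at least 1000 genes per cell, 5 with 30 components or resolution 0.5, 0 at a fold of 3, 1 with haemoglobin and immunoglobulin clusters named and 4 without the neuronal cells. Immune cells led 3 with 30 components, resolution 0.5 or cell-by-cell classes, and 1 with at least 200 or 1000 genes, members among the features, thinning, no neuronal cells or no top cell.

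The log2 lead of Kcnip4 in Schwann cells reversed to -3.75 at 200 genes, -3.35 with 30 components, -3.42 at resolution 0.5, -4.41 with members among the features, -1.83 with cell-by-cell classes, -3.55 without the neuronal cells and -1.61 without its top cells. For Kcnb2 the values were -2.56, -2.19, -1.91, -2.02, -2.39 and -1.20 in the first 6 of these, and -0.021 after thinning.

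Of 80 counts past 2-fold between libraries 61 stayed within 1.5 times. In Schwann cells the count was 4 at 200 or 1000 genes, 1 with 30 components or resolution 0.5, 5 with members among the features, 0 with cell-by-cell classes, 19 at 20 UMIs and 6 without the neuronal cells. In mural cells it was 0 at 1000 genes or with cell-by-cell classes, 6 at a fold of 1.5, 5 at 20 UMIs and 1 with haemoglobin and immunoglobulin clusters named. In endothelial cells it was 5 after thinning and 6 at 20 UMIs, in stromal cells 13 at a fold of 1.5, and in immune cells 3 at 1000 genes, 12 at a fold of 1.5 and 11 at 20 UMIs.

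Of 294 alternative log2 ratios 243 stayed past 2-fold in the same direction and 18 reversed. In Schwann cells Kcnma1 was at -0.88 at 200 genes and -1.38 with members among the features. Kcnd2 was at -0.55 at 200 genes, -2.19 at 1000 genes, -1.94 without integration, -0.47 with members among the features, -0.19 after thinning and -0.45 without the top cells. Kcnd3 was at 0.83 with cell-by-cell classes, and Kcnn4 at 0.14 at 1000 genes, 0.85 with 30 components, 0.84 at resolution 0.5, 1.24 with cell-by-cell classes and 1.03 after thinning. Elsewhere Kcnq5 in mural cells was at -0.36 and Kcnq3 in stromal cells at -0.25 with cell-by-cell classes, Kcnn2 in endothelial cells at 0.054 after thinning and Kcnj10 in immune cells at -1.02 after thinning. The cause was not tested. Members under the minimum of UMIs in either library were not ranked by class.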
